A study of Mus musculus with 36 samples.

Results

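The genes examined here encode the subunits of neurotransmitter receptors in the mouse embryonic forebrain. They were chosen by symbol, as the AMPA (Gria), NMDA (Grin), kainate (Grik), delta (Grid) and metabotropic (Grm) glutamate receptors, the GABA-A (Gabr) and GABA-B (Gabbr) receptors, the glycine receptors (Glra and Glrb), the nicotinic (Chrn) and muscarinic (Chrm) acetylcholine receptors, and the serotonin (Htr) and dopamine (Drd) receptors. Of 46603 genes listed in the count tables, 91 carried such a symbol. A gene was kept where its count averaged at least 10 per library within a table, which left 65 genes at embryonic day (E) 12.5 and 50 genes at E10.5. Together these were 68 genes, 47 of which were kept at both stages. At E12.5 the genes nearest the limit were Drd1 at 11.4, Htr1a at 11.8 and Gabrr2 at 13.3 counts per library inside it, and Glra4 at 9.92, Chrm5 at 9.67 and Htr2b at 8.75 outside it. At E10.5 they were Drd2 at 10.3, Gabrr2 at 11.2 and Gabbr2 at 12 inside, and Htr2b at 9.33, Chrm3 at 9.17 and Htr2a at 8.83 outside.

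The data are RNA sequencing counts from C57Bl/6J mouse embryos of an allelic series in Chd8, which encodes a chromatin remodeller linked to autism. Neocortex at E12.5 was taken from wild type (Chd8 +/+), heterozygous (Chd8 +/-), mild hypomorph (Chd8 neo/neo) and severe hypomorph (Chd8 neo/-) embryos. The neo allele carries a neo cassette between exons of Chd8 that lowers its expression in every cell, and the - allele is a null. Telencephalic vesicles at E10.5 were taken from conditional knockouts (cKO, sox1-Cre with floxed Chd8, in which Cre is active in neural progenitors, so that cells outside the neural lineage keep intact Chd8) and from controls (Ctrl) of mixed Chd8f/f and Chd8 f/+ genotype. Each group had 3 libraries, each from 1 embryo at E12.5 and from the pooled RNA of 2 embryos at E10.5.

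Total counts ran from 38774591 to 61051667 per library at E12.5 and from 49632937 to 68488879 at E10.5. Chd8 itself was at 237 ± 2.41 CPM (counts scaled to library size, SD, n = 3) in Chd8 +/+, 167 ± 3.04 in Chd8 +/-, 209 ± 5.64 in Chd8 neo/neo, 149 ± 8.38 in Chd8 neo/-, 171 ± 12.01 in Ctrl and 121 ± 4.78 in cKO embryos, counted over all exons, so transcripts that run into the cassette or lack only the deleted exon can still count. No count by exon was made. By these counts Chd8 neo/neo lay above Chd8 +/-, so the grading of the series rests on the transcript and protein measurements of the authors. Markers of the dorsal telencephalon were present in every group, Emx1 with group means of 48.1 to 57.9 CPM and Lhx2 with 423 to 469 CPM at E12.5, and Emx1 with 29.6 and 37.5 CPM at E10.5. One heterozygous library, Chd8 +/- replicate 2, stood apart in its diencephalon markers, which summed to 363 CPM against 128 to 208 CPM in the other E12.5 libraries. It also stood apart in its mesenchyme and meninges markers, at 1162 CPM against 552 to 849 CPM. Xist, transcribed from the inactive X chromosome of females, was at 1458 to 2043 CPM in Chd8 +/+ replicate 3, Chd8 +/- replicate 1 and Chd8 neo/neo replicates 1 and 2, and at 2.49 CPM or less in the other 8 libraries at E12.5. In the pooled E10.5 libraries Xist was at 1779, 3.09 and 2141 CPM in Ctrl and at 1069, 708 and 772 CPM in cKO.

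Neurotransmitter receptors fall into ligand-gated channels, built from several subunits around a pore, and receptors that signal through G proteins. Glutamate opens the AMPA, NMDA and kainate channels and excites mature neurons, while GABA and glycine open chloride channels, which depolarise immature neurons. Many of these genes are switched on as progenitors become neurons, and several are active in the embryonic cortex before synapses form, where GABA and glutamate influence proliferation and migration.

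In control embryos the receptor genes differed widely in level (plot of level per exon length by family). Compared per kilobase of exon, which adjusts for gene length, the highest level in Chd8 +/+ neocortex was that of Grik5, a high-affinity kainate receptor subunit, at 34.8 CPM per kb. Gabbr1, the GABA-binding subunit of the GABA-B receptor, followed at 22.9 CPM per kb, then Gria2, the AMPA subunit that limits calcium entry, at 12.1 CPM per kb, and Grik3, a low-affinity kainate subunit, at 11.5 CPM per kb. The highest member of the nicotinic family was Chrnb2, at 7.49 CPM per kb. Among NMDA subunits Grin2b was highest, at 0.986 CPM per kb, above the obligatory subunit Grin1 at 0.345 CPM per kb. The highest members of other families were Glrb at 3.61, Grm2 at 1.42, Htr3a at 1.34, Grid1 at 1.197, Drd2 at 0.539 and Chrm4 at 0.491 CPM per kb. Receptors for serotonin, dopamine and muscarinic acetylcholine signalling were therefore all at 1.34 CPM per kb or less.

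**Figure D1:**
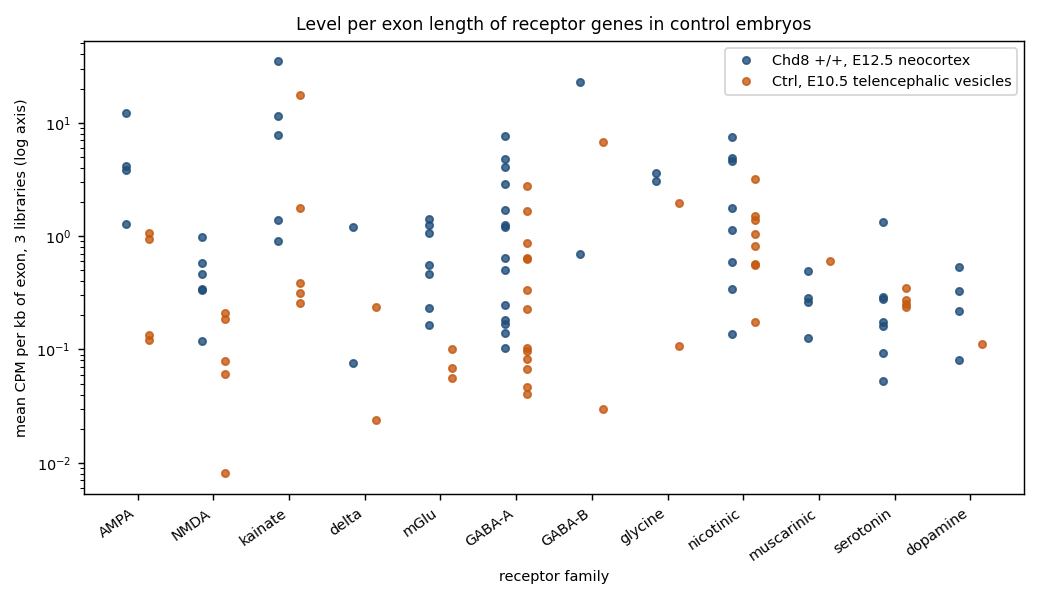
Level of each kept receptor gene by family, as mean CPM per kb of exon on a log axis, in Chd8 +/+ neocortex at E12.5 (blue, 65 genes) and in Ctrl telencephalic vesicles at E10.5 (orange, 50 genes), each point the mean of 3 libraries. Grik5 is the highest point at both stages, at 34.8 and 17.6 CPM per kb, and the NMDA, muscarinic, serotonin and dopamine families lie below the AMPA and kainate maxima.

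At E10.5 Grik5 was again highest, at 17.6 CPM per kb, followed by Gabbr1 at 6.76, the nicotinic subunit Chrna3 at 3.18 and the GABA-A subunit Gabra3 at 2.74 CPM per kb. The highest AMPA subunit at this stage was Gria3, at 1.07 CPM per kb, while Gria2 was at 0.133. Of the 68 genes, 57 had every Chd8 +/+ library at E12.5 above every Ctrl library at E10.5, 8 had every library below, and 3 overlapped. The share of all genes without such overlap was not taken, so these counts do not set receptor genes apart. Gria2 was at 189 CPM at E12.5 and 2.07 CPM at E10.5, and Grin2b at 24.5 and 0.202 CPM. Gria3 stood at 12.5 and 10.5 CPM. The genes lower at E12.5 were Chrm4, Chrna1, Chrnb1, Chrnb4, Gabre, Htr1b, Htr3b and Htr5b, among them Chrna1 and Chrnb1, subunits of the muscle-type nicotinic receptor. These levels were set side by side across tables that were normalised separately and came from different tissues, so no test was made. Over the same stages the summed level of 16 markers of postmitotic neurons was between 268 and 472 CPM in Ctrl and between 4820 and 5704 CPM in Chd8 +/+ libraries.

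At E12.5 the question was how the receptor genes responded to the graded loss of CHD8 protein that the authors reported. In mild hypomorphs 11 of 65 receptor genes fell and none rose against wild type, and in severe hypomorphs 5 fell and none rose. In heterozygotes none were called. A gene was called where the p-value of edgeR's quasi-likelihood test, adjusted over all 18810 genes tested, was below 0.05. Over all genes tested, the percentage called in the mild hypomorphs was 8.16% (4.45% called lower), that in the severe hypomorphs 11.5% (5.99% lower), and that in heterozygotes 0.0213%. Receptor genes called lower were thus 16.9% of those tested in the mild hypomorphs and 7.69% in the severe hypomorphs. The median log2 fold change of the 65 genes was -0.32 in mild and -0.24 in severe hypomorphs, beside medians of 0.01 and 0.00 over all genes tested. In heterozygotes the median of the 65 genes was 0.02. Of the 65 genes, 53 in the mild and 50 in the severe hypomorphs had values below 0. Every mutant library lay below every wild type library for 24 genes in mild hypomorphs, against 13.5% of all genes tested, and for 21 genes in severe hypomorphs, against 16.9% of all genes tested. Both hypomorph comparisons share the wild type libraries. Leaving out a single library moved the mild hypomorph count to 1 without Chd8 +/+ replicate 2 or Chd8 neo/neo replicate 2, to 4 without Chd8 neo/neo replicate 1, to 17 without Chd8 +/- replicate 2 and to 24 without Chd8 neo/neo replicate 3. The severe hypomorph count became 3 without Chd8 +/+ replicate 2 or 3 or Chd8 neo/- replicate 1 or 2, and 9 without Chd8 neo/neo replicate 3.

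**Figure D2:**
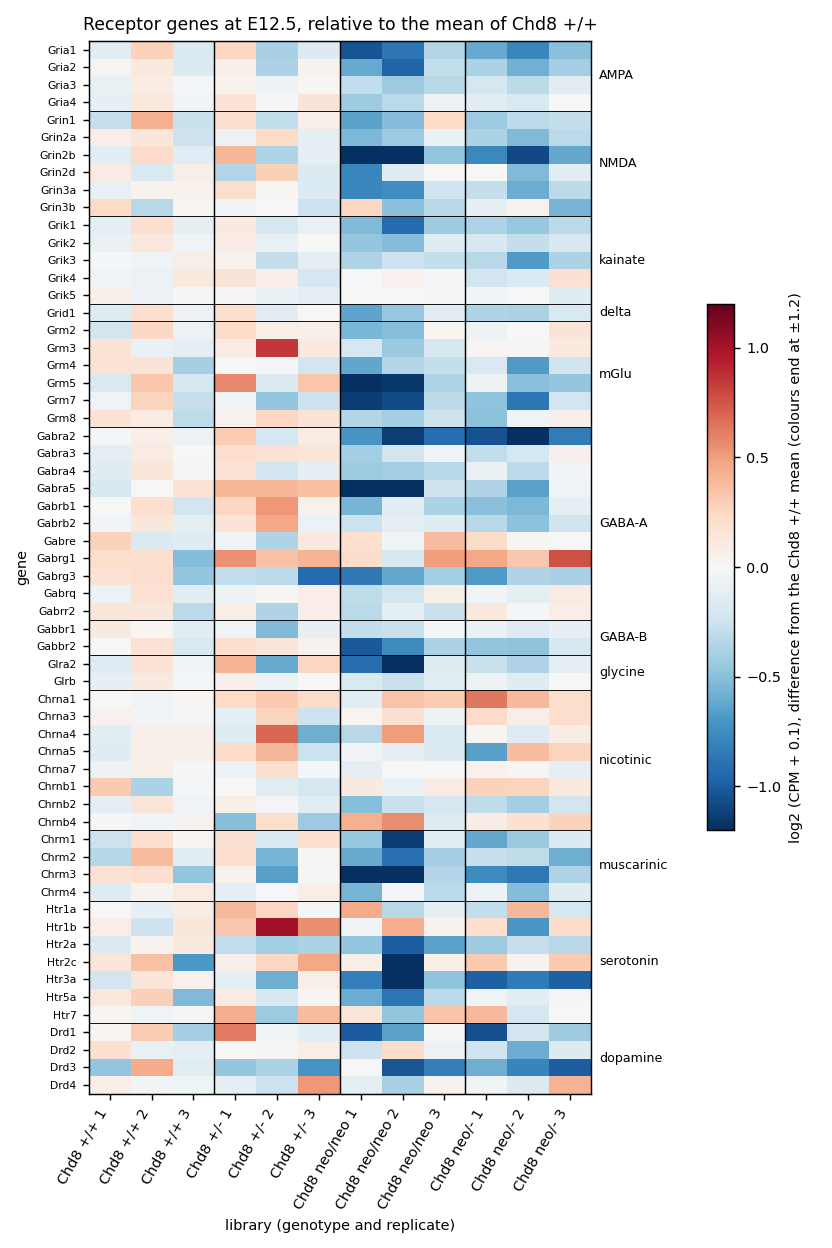
Heat map of 60 of the 65 receptor genes (rows, by family) in the 12 neocortex libraries at E12.5 (columns), coloured by log2 (CPM + 0.1) minus that of the Chd8 +/+ mean, with colours ending at ±1.2. Blue predominates in the glutamate, GABA-A and muscarinic rows of the hypomorphs and is paler in replicate 3 of Chd8 neo/neo than in its replicates 1 and 2, while nicotinic rows are mostly pale or red.

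Markers of postmitotic neurons moved with the receptor genes. Their summed level was 4820 to 5704 CPM in wild type, 4941 to 5801 in heterozygous, 3865 to 4647 in mild hypomorph and 4301 to 4866 in severe hypomorph libraries. All 16 had values below 0 in mild hypomorphs, at a median of -0.32 on the log2 scale, and 3 of them fell, namely Dcx, Elavl4 and Map2. In severe hypomorphs 15 of 16 were below 0, with a median of -0.16, and Dcx and Map2 fell. The 12 radial glia markers had medians of 0.19 and 0.07, and 2 of them rose in mild hypomorphs. Within Chd8 neo/neo, replicate 3, the one library of that group with low Xist, had the highest neuron marker sum (4647 CPM) and the lowest radial glia sum (3642 CPM). The part of these markers in the receptor values was not tested, and in bulk tissue fewer neurons and less receptor RNA per neuron cannot be told apart. Blood markers were higher in severe hypomorphs, at 4304 to 6863 CPM against 2982 to 3667 CPM in wild type, with 3 of 6 called higher, and their part was not tested either.

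**Figure D3:**
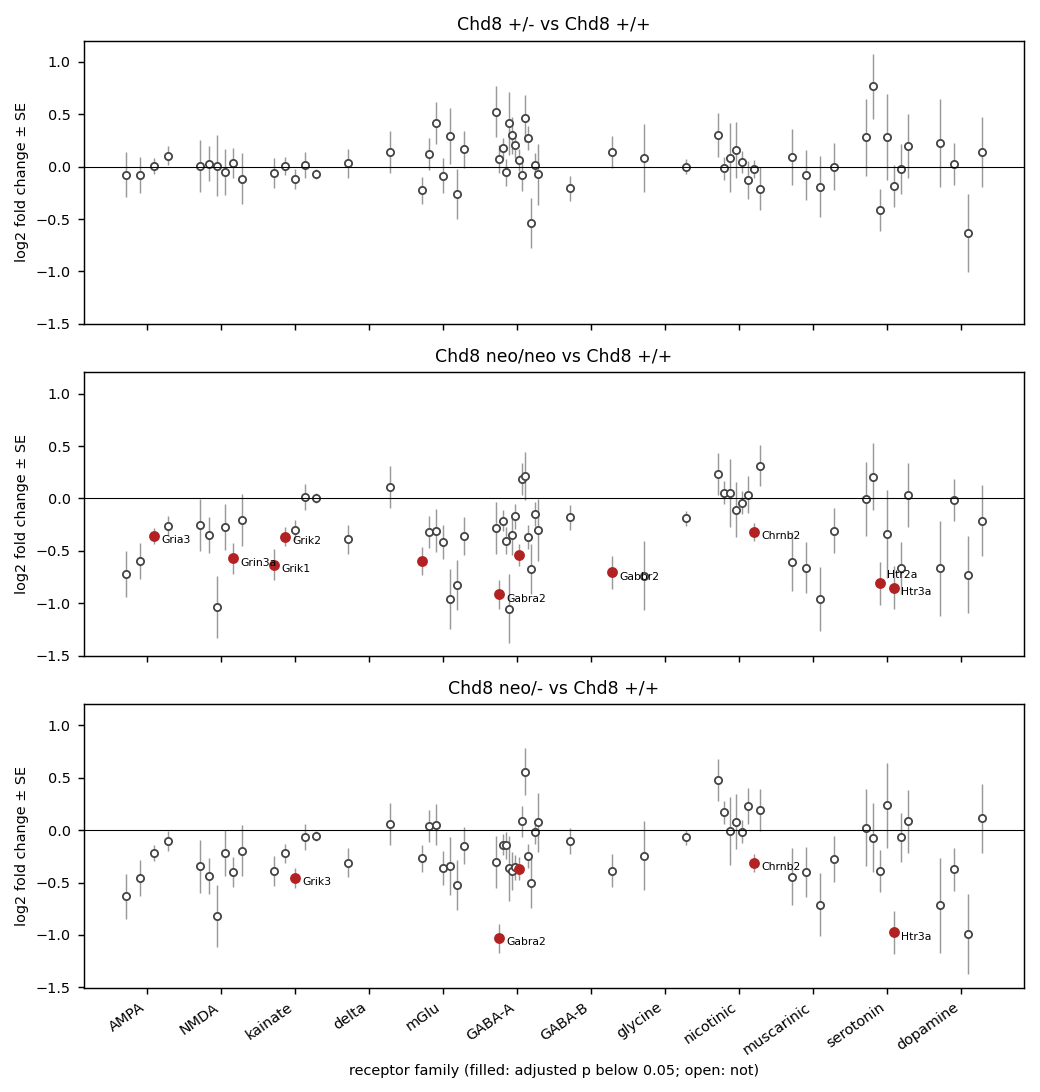
Log2 fold change ± SE of the 65 receptor genes by family in heterozygous, mild hypomorph and severe hypomorph neocortex against wild type at E12.5. Filled points have an edgeR adjusted p below 0.05, 0 in heterozygotes, 11 in mild hypomorphs and 5 in severe hypomorphs, all of them below 0.

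Gabra2 was the one receptor gene whose call held in both hypomorphs under every alternative run. Gabra2 encodes an alpha subunit of the GABA-A receptor, the chloride channel through which GABA depolarises immature neurons. It was at 21.7, 23.2 and 20.9 CPM in the 3 wild type libraries, 27.2, 18.9 and 23.3 CPM in heterozygotes, 13.4, 9.98 and 11.6 CPM in mild hypomorphs and 10.6, 9.46 and 12.2 CPM in severe hypomorphs. All 6 hypomorph libraries lay below all 6 libraries of the other genotypes. Gabra2 fell by 0.92 on the log2 scale in mild hypomorphs (SE 0.137, edgeR adjusted p = 0.00389) and by 1.03 in severe hypomorphs (SE 0.138, edgeR adjusted p = 0.000897), to 0.53 and 0.49 of wild type. Both calls held in each of 20 alternative analyses. At E10.5 it was at 1.73 CPM in Ctrl and was not called in cKO embryos.

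Gabra2 lies on chromosome 5 (GRCm38 chr5:70957597-71095849, minus strand). Its promoter is shown because it belongs to the receptor gene with the largest call in both hypomorphs, and because the CHD8 protein is known to bind near the start sites of active genes. The sequence does not show that CHD8 binds there, and binding at Gabra2 was not examined. The 250 bases before its RefSeq start site (GRCm38.p6, chr5:71095850-71096099, minus strand, written 5′ to 3′ along the gene) hold 18 CpG dinucleotides, given in capitals, and are 70% G and C. The 60 promoter windows found for 51 of the 68 receptor genes had medians of 9.5 CpG and 60.6% G and C in these 250 bases, beside 6 and 52.4% over all 32851 windows.
Gabra2: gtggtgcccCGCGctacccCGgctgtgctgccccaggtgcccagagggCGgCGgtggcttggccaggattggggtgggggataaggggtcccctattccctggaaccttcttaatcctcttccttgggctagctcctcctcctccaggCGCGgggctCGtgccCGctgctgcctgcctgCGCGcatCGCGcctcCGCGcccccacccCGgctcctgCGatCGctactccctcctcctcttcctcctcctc

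Of 14 GABA-A subunit genes, 2 fell in each hypomorph, Gabra2 among them, and the family medians were -0.33 and -0.27. Gabra5, an alpha subunit of extrasynaptic receptors, was at 1.15, 1.35 and 1.51 CPM in wild type and at 0.307, 0.479 and 1.11 CPM in mild hypomorphs. Its log2 fold change of -1.05 had the largest size among the receptor genes in mild hypomorphs but did not pass the test (SE 0.327, edgeR adjusted p = 0.064). The third of these libraries lay just below the lowest wild type library. About 5.58% of the exon bases of Gabra5 overlap another gene. Counting was not by strand, so reads from these bases cannot be assigned to a single gene by position alone.

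GABA-A subunit genes lie in clusters. Gabra2 shares its cluster with Gabrg1, Gabra4 and Gabrb1 (chr5:70751047-72149037), and none of these neighbours was called against wild type. Gabra4, at 2.88 to 3.07 CPM in mild hypomorphs against 3.52 to 4.34 CPM in wild type, had a log2 fold change of -0.40 and Gabrb1 one of -0.35, while Gabrg1 had 0.21. Outside this cluster, the gamma subunit gene Gabrg3 had a log2 fold change of -0.67 in mild hypomorphs that did not pass the test.

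**Figure D4:**
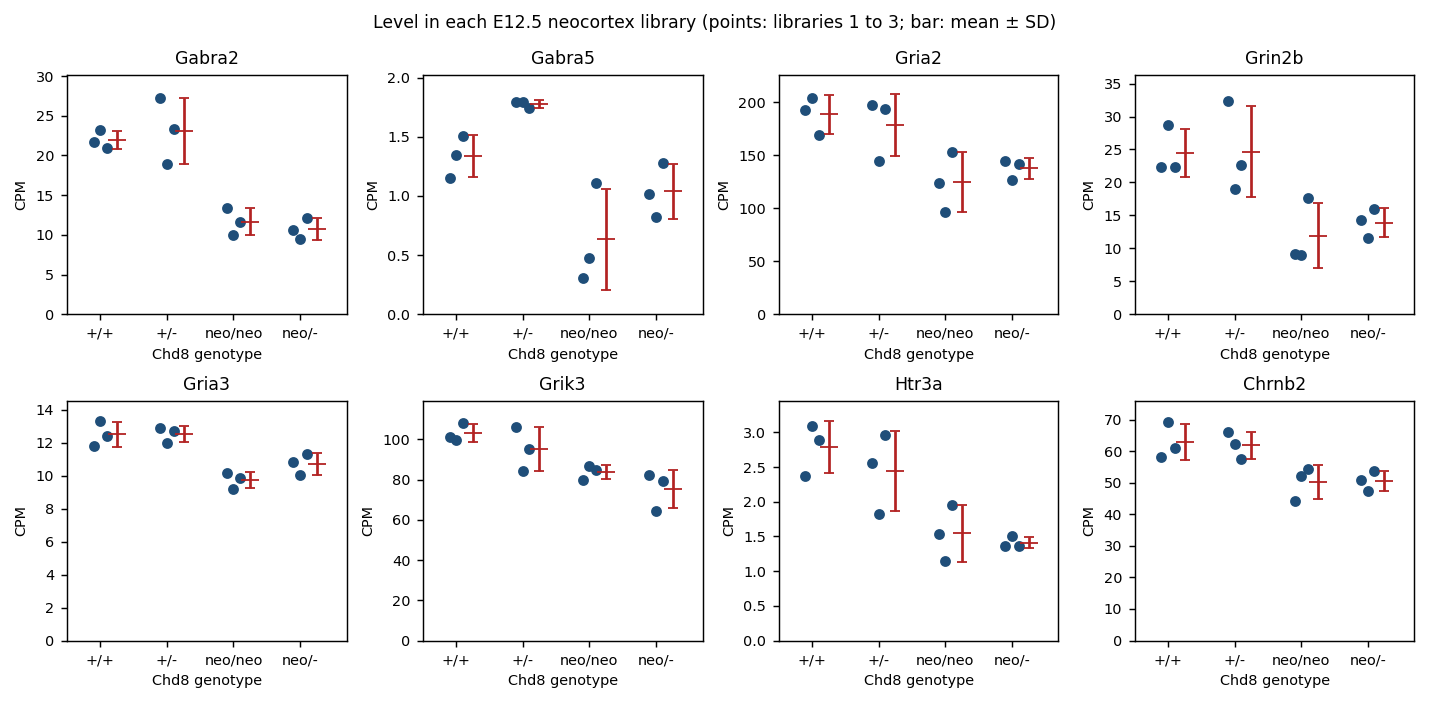
CPM of Gabra2, Gabra5, Gria2, Grin2b, Gria3, Grik3, Htr3a and Chrnb2 in each of 3 libraries of the 4 genotypes at E12.5 (blue points), with the group mean ± SD (red). Hypomorph points of Gabra2 lie between 9.46 and 13.4 CPM, below all wild type and heterozygous points, and Chd8 neo/neo replicate 3 is the highest of its group for Gabra5, Gria2 and Grin2b.

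The AMPA receptor genes encode the channels for fast excitation, and all 4 had values below 0 in both hypomorphs, with medians of -0.48 and -0.34. Gria3, which lies on the X chromosome, was the one AMPA gene called. It was at 11.8, 13.3 and 12.4 CPM in wild type, 12.9, 11.9 and 12.7 CPM in heterozygotes, 10.1, 9.19 and 9.87 CPM in mild hypomorphs and 10.8, 10.02 and 11.3 CPM in severe hypomorphs. All libraries of each hypomorph lay below those of wild type and heterozygotes, and Gria3 fell by 0.36 (SE 0.0752, edgeR adjusted p = 0.0123) in mild hypomorphs, while its value of -0.22 in severe hypomorphs did not pass (edgeR adjusted p = 0.0718). Gria2, the highest AMPA subunit per kilobase at E12.5, was at 193, 204 and 169 CPM in wild type, 124, 96.7 and 154 CPM in mild hypomorphs and 145, 127 and 142 CPM in severe hypomorphs. Neither hypomorph overlapped wild type, but the log2 fold change of -0.60 in mild hypomorphs had an edgeR adjusted p of 0.0686. Heterozygotes were at 197, 145 and 194 CPM for Gria2, with replicate 2 inside the range of mild hypomorphs. Gria1 was at 21.04, 28.03 and 20.5 CPM in wild type, 11.3, 12.6 and 18.1 CPM in mild hypomorphs and 15.2, 13.4 and 16.4 CPM in severe hypomorphs, again without overlap with wild type and without a call. In heterozygotes Gria1 was at 27.65, 17.6 and 20.7 CPM, and replicate 2 again lay inside the range of mild hypomorphs. The Gria3 call in mild hypomorphs was kept with the Xist level as a covariate and lost in 5 of 20 alternatives, among them only the 2 groups fitted, the exon length trend removed, and leaving out Chd8 +/+ replicate 2 or Chd8 neo/neo replicate 2.

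NMDA receptors need glutamate and a co-agonist, and their Grin2 subunits set channel kinetics. All 6 NMDA subunit genes had values below 0 in both hypomorphs, with medians of -0.31 and -0.37. Grin3a, a glycine-binding subunit that lowers calcium flow, was at 6.67, 7.34 and 7.36 CPM in wild type, 4.11, 4.20 and 6.03 CPM in mild hypomorphs and 5.82, 4.68 and 5.72 CPM in severe hypomorphs. It fell by 0.57 in mild hypomorphs (SE 0.146, edgeR adjusted p = 0.03), a call lost in 8 of 20 alternatives. Grin2b, the Grin2 subunit typical of the embryo, was at 22.4, 28.7 and 22.4 CPM in wild type, 32.4, 18.95 and 22.7 CPM in heterozygotes, 9.14, 8.99 and 17.6 CPM in mild hypomorphs and 14.3, 11.5 and 15.96 CPM in severe hypomorphs. Every hypomorph library lay below every wild type library. Its log2 fold changes of -1.04 (SE 0.298) and -0.82 (SE 0.296) did not pass the test, with edgeR adjusted p-values of 0.0672 and 0.116, beside a spread among libraries of 1 genotype as wide as 8.99 to 17.6 CPM.

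Kainate receptors act both at and outside synapses. Of their 5 subunit genes, Grik1 and Grik2 fell in mild hypomorphs and Grik3 fell in severe hypomorphs. Grik1 was at 4.01, 5.003 and 4.02 CPM in wild type, 2.98, 2.25 and 3.20 CPM in mild hypomorphs and 3.33, 3.14 and 3.45 CPM in severe hypomorphs. It fell by 0.63 in mild hypomorphs (SE 0.146, edgeR adjusted p = 0.0197), a call lost in 3 of 20 alternatives. Grik2, at 61.4, 70.6 and 62.3 CPM in wild type and 46.9, 45.2 and 58.8 CPM in mild hypomorphs, fell by 0.37 (SE 0.0897, edgeR adjusted p = 0.0289), and this call was lost in 9 of 20 alternatives. Grik3 was at 101, 99.8 and 108 CPM in wild type, 79.9, 86.7 and 84.7 CPM in mild hypomorphs and 82.1, 64.3 and 79.1 CPM in severe hypomorphs. Heterozygotes were at 106, 84.3 and 95.1 CPM for Grik3, with replicate 2 inside the range of mild hypomorphs. Both hypomorph groups lay below wild type, and Grik3 fell by 0.46 in severe hypomorphs (SE 0.0933, edgeR adjusted p = 0.00995). None of the 20 alternatives ended this call. In mild hypomorphs its value was -0.30 (edgeR adjusted p = 0.0689). Grik5, the most abundant per kilobase, was at 127 to 139 CPM in wild type, 133 to 135 CPM in mild hypomorphs and 121 to 134 CPM in severe hypomorphs, with log2 fold changes of 0.00 and -0.06. Of the delta receptor genes, Grid1 had a value of -0.39 in mild hypomorphs and did not pass.

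Metabotropic glutamate receptors signal through G proteins, some by way of phospholipase C and others by lowering cyclic AMP. All 7 genes had values below 0 in mild hypomorphs, with a median of -0.41, and 5 of 7 in severe hypomorphs, with a median of -0.27. Grm5, a receptor coupled to phospholipase C, at 1.62, 2.36 and 1.59 CPM in wild type and 0.638, 0.777 and 1.41 CPM in mild hypomorphs, had a log2 fold change of -0.96 with no overlap (SE 0.289, edgeR adjusted p = 0.057). Of the GABA-B receptor genes, Gabbr2, which couples the receptor to its G protein, was at 4.03, 4.58 and 3.55 CPM in wild type, 1.96, 2.36 and 3.09 CPM in mild hypomorphs and 2.90, 2.87 and 3.53 CPM in severe hypomorphs. Gabbr2 fell by 0.71 in mild hypomorphs (SE 0.158, edgeR adjusted p = 0.0168), a call lost in 4 of 20 alternatives, while its partner Gabbr1, at 162 to 191 CPM in wild type and 146 to 176 CPM in mild hypomorphs, had -0.18 and was not called. Among glycine receptor genes, Glra2, the embryonic alpha subunit, was at 5.06, 3.54 and 8.68 CPM in mild hypomorphs against 8.59 to 10.8 CPM in wild type, and the anchoring subunit Glrb at 13.98 to 15.4 against 15.7 to 18.1 CPM. Neither passed the test.

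Of 8 nicotinic acetylcholine receptor genes, which encode cation channels opened by acetylcholine, 5 had values above 0 in each hypomorph, with medians of 0.04 and 0.13. Chrnb2, the main beta subunit of brain nicotinic receptors, fell in both. It was at 58.2, 69.2 and 60.9 CPM in wild type, 44.1, 52.1 and 54.5 CPM in mild hypomorphs and 50.9, 47.2 and 53.6 CPM in severe hypomorphs. The changes were small, at -0.32 (SE 0.0855, edgeR adjusted p = 0.0379) and -0.31 (SE 0.0855, edgeR adjusted p = 0.033), and were lost in 11 and 7 of 20 alternatives. About 16.3% of the exon bases of Chrnb2 overlap Adar. Chrna4, its common alpha partner, was at 22.4, 25.6 and 25.7 CPM in wild type but 39.7 CPM in Chd8 +/- replicate 2 and 34.8 CPM in Chd8 neo/neo replicate 2, the libraries with the highest diencephalon marker sums, 363 and 208 CPM. The part of those markers in the Chrna4 values was not tested. The 4 muscarinic receptor genes all had values below 0, with medians of -0.63 and -0.42, and none were called. Chrm3 had the lowest log2 fold change in both, -0.96 and -0.71, and was at 0.472, 0.496 and 0.98 CPM in mild hypomorphs against 1.45, 1.49 and 0.893 CPM in wild type, so the groups overlapped.

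Of 7 serotonin receptor genes, Htr3a fell in both hypomorphs and Htr2a in mild hypomorphs. Htr3a encodes the subunit common to all serotonin-gated channels and marks interneurons from the caudal ganglionic eminence as well as some early cortical neurons. It was at 2.37, 3.09 and 2.89 CPM in wild type, 2.55, 1.82 and 2.96 CPM in heterozygotes, 1.54, 1.14 and 1.96 CPM in mild hypomorphs and 1.36, 1.4998 and 1.37 CPM in severe hypomorphs. Neither hypomorph overlapped wild type. Htr3a fell by 0.85 (SE 0.206, edgeR adjusted p = 0.0242) in mild and by 0.98 (SE 0.208, edgeR adjusted p = 0.00874) in severe hypomorphs, and only the severe hypomorph call was kept in all 20 alternatives. The 15 markers of ventral telencephalon and interneurons had medians of -0.14 and -0.13 in the hypomorphs, with 1 of 15, Gad1, called lower in each, and their part in the Htr3a values was not tested. Htr2a, a Gq-coupled receptor, was at 0.724, 0.849 and 0.893 CPM in wild type, 0.652, 0.592 and 0.608 CPM in heterozygotes, 0.567, 0.364 and 0.49 CPM in mild hypomorphs and 0.584, 0.661 and 0.631 CPM in severe hypomorphs. It fell by 0.81 in mild hypomorphs (SE 0.206, edgeR adjusted p = 0.0292), a call lost in 6 of 20 alternatives, DESeq2 among them. None of the 4 dopamine receptor genes was called. Drd3, at 0.313, 0.684 and 0.425 CPM in wild type and 0.281, 0.232 and 0.189 CPM in severe hypomorphs, had the largest value among them, -0.99 (SE 0.381, edgeR adjusted p = 0.11).

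Heterozygotes carried 1 null allele and showed no called receptor gene by edgeR or DESeq2. Receptor genes below an unadjusted p of 0.05 numbered 4 of 65, against 6.33% of all genes tested. Among them were Htr1b, with a log2 fold change of 0.77, and Gabrg3, with -0.54. Htr1b, a Gi-coupled serotonin receptor, was at 0.573, 0.978 and 0.692 CPM in heterozygotes and at 0.47, 0.354 and 0.489 CPM in wild type, without overlap. Gabrg1, Gabra5, Chrna1 and Gabra3 also had every heterozygous library above every wild type library, with values of 0.46, 0.41, 0.30 and 0.18, and Htr2a had every library below, at -0.41. With Htr1b these were 5 of 65 genes above, against 5.48% of all genes tested, and 1 of 65 below, against 5.90%. The highest Htr1b level, 0.978 CPM, was that of replicate 2, the library with high diencephalon markers. About 18% of the exon bases of Htr1b overlap another gene.

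Mild hypomorphs were also compared with heterozygotes, and 13 of 65 receptor genes fell and none rose, where 5.28% of all genes were called and 3.28% were called lower. The median was -0.37, 59 genes were below 0, and 25 had every mild hypomorph library below every heterozygous library, against 12.1% of all genes tested. The genes called included Gabra2 (-0.99), Gabra3 (-0.39), Gabra5 (-1.47), Gabbr2 (-0.84), Gria3 (-0.36), Gria4 (-0.37), Grik1 (-0.58), Grik2 (-0.37), Grin3a (-0.60), Grm3 (-0.72) and Grm5 (-1.25). When the fit was repeated with a replicate block, as was done for every comparison, 8 remained called (among them Gabra2, Gabra3, Gabra5, Gabbr2, Gria3 and Gria4). Gabra5 was at 1.80, 1.80 and 1.74 CPM in heterozygotes and 0.307, 0.479 and 1.11 CPM in mild hypomorphs, to 0.362 of the heterozygous level in the fit. Gabra3, an X-linked alpha subunit typical of the embryo, was at 21.7, 21.2 and 20.8 CPM in heterozygotes and 14.1, 16.1 and 18.3 CPM in mild hypomorphs. With the Xist level as a covariate 5 genes were called, and Gabra3 was not among them. When only these 2 groups were fitted no receptor gene was called by edgeR, and the adjusted p of Gabra2 was 0.0554, while DESeq2 over all 4 groups called 23. A single library decided the count, which was 1 without Chd8 +/- replicate 1 or Chd8 neo/neo replicate 1 or 2, 6 without Chd8 +/- replicate 3, 7 without Chd8 +/+ replicate 3, 8 without Chd8 neo/- replicate 1 or 2 and 26 without Chd8 neo/neo replicate 3.

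Severe hypomorphs did not differ from mild hypomorphs in any receptor gene called by edgeR or DESeq2, where 0.0159% of all genes were called. The median log2 fold change was 0.12 and values ran from -0.36 to 0.69. Receptor genes below an unadjusted p of 0.05 numbered 3, against 8.43% of all genes tested, among them Htr5a (0.60) and Grm2 (0.36), and all 3 were higher in severe hypomorphs. Htr5a, a Gi-coupled serotonin receptor, was at 0.844, 0.786 and 0.862 CPM in severe and 0.543, 0.43 and 0.678 CPM in mild hypomorphs. In all, 7 genes had every severe hypomorph library above every mild hypomorph library (among them Htr5a, Htr2a, Gabrr2, Grm3, Gabra4 and Chrnb1), with Htr2a at 0.42 and Gabrr2 at 0.38, against 7.99% of all genes tested. None had every library below, against 7.19% of all genes tested.

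At E10.5 the conditional knockout removed Chd8 from neural progenitors. Of 49 receptor genes tested, Gria3 rose and Gria2, Chrna1, Gabrb2 and Gabre fell, while 11.4% of all 18435 genes tested were called (5.75% higher and 5.70% lower). Drd2 was not tested because its counts were too low. The median over the 49 genes was -0.14, beside 0.00 over all genes, 29 genes were below 0, and 11 had every cKO library below every Ctrl library, against 16.6% of all genes tested. The count of called genes was 1 without Ctrl replicate 1 or cKO replicate 3 and 2 without Ctrl replicate 3 or cKO replicate 1 or 2.

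The AMPA family held opposite changes. Gria3 was at 11.05, 11.2 and 9.32 CPM in Ctrl and 17.7, 22.6 and 24.7 CPM in cKO embryos, and rose by 1.04 on the log2 scale, or 2.06-fold (SE 0.128, edgeR adjusted p = 0.00104). The call held in all 13 alternatives, the Xist covariate included. Gria2 was at 2.24, 1.71 and 2.27 CPM in Ctrl and 0.877, 1.37 and 1.16 CPM in cKO embryos, and fell by 0.87 (SE 0.197, edgeR adjusted p = 0.0189), a call lost without Ctrl replicate 1 or 3 or cKO replicate 1 or 3. Gria4 had 0.41 (edgeR adjusted p = 0.065) and Gria1 had -0.63 (edgeR adjusted p = 0.141), and neither passed. All cKO libraries lay below all Ctrl libraries for Gria1 and Gria2. Markers of mesenchyme and meninges summed to 924 to 1100 CPM in cKO and 748 to 834 CPM in Ctrl libraries, with Col1a2 and Col3a1 of 8 called higher, 2 of 8 endothelial and 1 of 6 microglial markers were also called higher, and the part of these markers in the receptor values was not tested. Neuron markers summed to 316 to 432 CPM in cKO and 268 to 472 CPM in Ctrl libraries, and none was called.

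Gria2 lies on chromosome 3 (GRCm38 chr3:80681450-80802835, minus strand). Its promoter is shown because Gria2 fell at E10.5 and because the region before its start holds the letters of an RE1 element, the site of the repressor REST, which keeps neuronal genes off outside neurons. The windows, 250 bases before to 50 after each RefSeq start, were searched on both strands for AGCACC followed after 2 bases of any kind by GGACAG. Of the 51 receptor genes with a window only Gria2 held it, and 0.0517% of all windows did. In the 250 bases before its start (GRCm38.p6, chr3:80802836-80803085, minus strand, 5′ to 3′) the match lies on the reverse strand of the gene, from 170 to 157 bases before the start, and is given in capitals. The match describes the letters and does not show binding.
Gria2: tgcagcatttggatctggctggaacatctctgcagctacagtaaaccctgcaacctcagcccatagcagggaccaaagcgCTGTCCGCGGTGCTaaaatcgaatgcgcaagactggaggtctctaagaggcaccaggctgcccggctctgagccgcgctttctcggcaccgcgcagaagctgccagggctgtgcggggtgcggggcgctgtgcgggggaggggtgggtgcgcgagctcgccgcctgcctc

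Among the other genes called at E10.5, Chrna1 was at 2.48, 2.89 and 2.02 CPM in Ctrl and 1.84, 1.54 and 1.4996 CPM in cKO embryos, and fell by 0.60 (SE 0.17, edgeR adjusted p = 0.0447). The GABA-A subunit Gabrb2 was at 4.34, 3.72 and 4.26 CPM in Ctrl and 2.48, 3.34 and 2.91 CPM in cKO embryos, and fell by 0.50 (SE 0.141, edgeR adjusted p = 0.0438). Gabre, an X-linked epsilon subunit, was at 7.87, 7.86 and 7.98 CPM in Ctrl and 6.19, 5.87 and 6.33 CPM in cKO embryos, and fell by 0.37 (SE 0.0937, edgeR adjusted p = 0.0295). Each of these calls was lost in 5 of the 6 fits that left out a single library. The Chrna1 call was also lost with the Xist level as a covariate, and the Gabrb2 call with a replicate block. Glra4, a glycine receptor subunit, was at 0.388, 0.331 and 0.431 CPM in cKO and 0.153, 0.299 and 0.197 CPM in Ctrl, at 0.83 without a call (edgeR adjusted p = 0.114). Grik5, Gabbr1 and Chrna3, the most abundant at this stage, were not called.

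**Figure D5:**
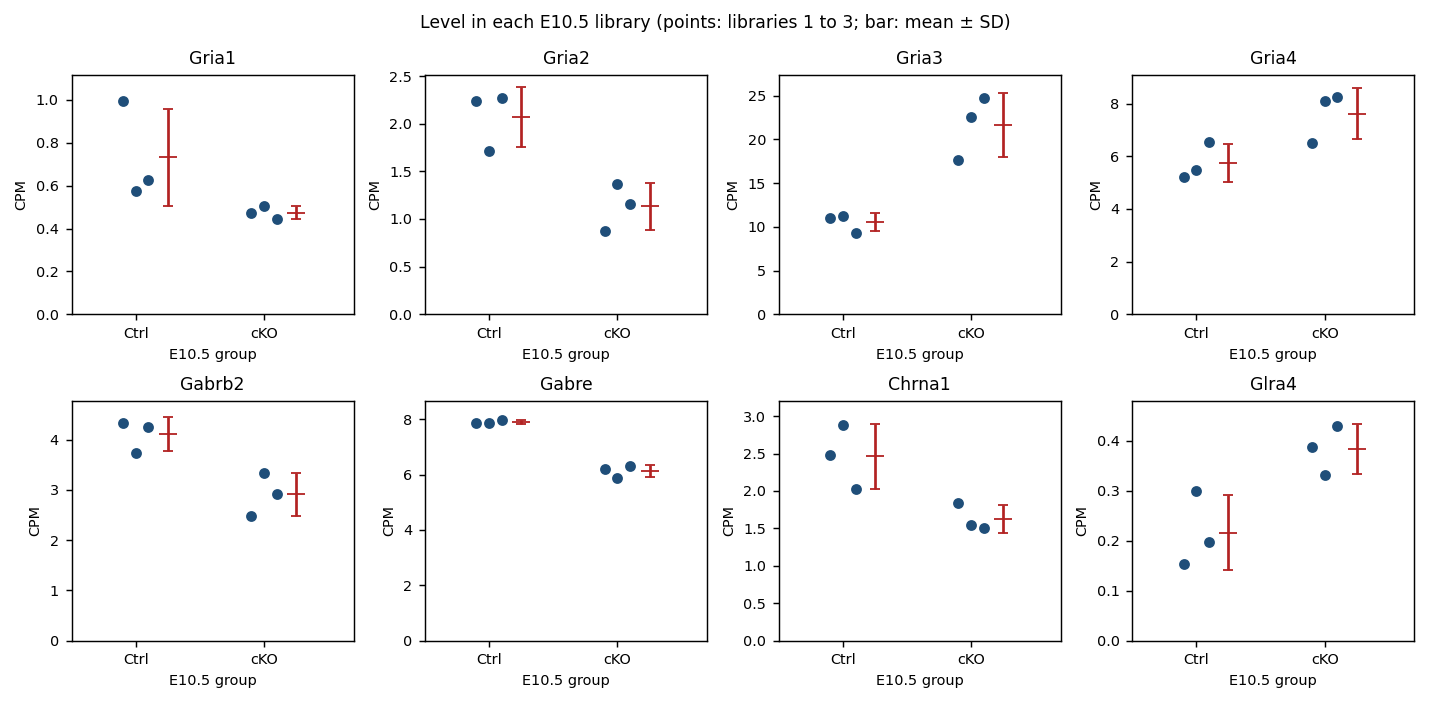
CPM of the 4 AMPA subunit genes and of Gabrb2, Gabre, Chrna1 and Glra4 in each of 3 Ctrl and 3 cKO libraries at E10.5 (blue points), with the group mean ± SD (red). All cKO points of Gria3 lie between 17.7 and 24.7 CPM above the Ctrl points, and those of Gria2, Gabrb2, Gabre and Chrna1 lie below theirs.

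Genes for auxiliary subunits and anchors, which assemble and place receptors, were followed as a list of 49. Of these 9 fell and none rose in mild hypomorphs and 6 fell in severe hypomorphs, with medians of -0.16 and -0.10, where 4.45% and 5.99% of all genes tested were called lower. Lhfpl4, which partners GABA-A receptors at synapses, fell by 0.35 and 0.41 (edgeR adjusted p = 0.0055 and 0.000963). Neto1, an auxiliary subunit of kainate receptors, fell by 0.53 and 0.77. Homer2, Lypd1 and Olfm2 fell in both hypomorphs, and Cacng4, Shisa6 and Shisa9, all partners of AMPA receptors, fell in mild hypomorphs. Against heterozygotes 9 of 49 fell in mild hypomorphs, where 3.28% of all genes tested were called lower. Against wild type none was called in heterozygotes, where 0.0213% of all genes tested were called. In cKO embryos at E10.5, 47 were tested, with 5 called lower (Cacng7, Lhfpl4, Neto1, Ric3 and Shisa7) and 3 called higher (Clptm1, Cpt1c and Kctd12), where 5.70% of all genes were called lower and 5.75% higher. Cpt1c, a binding partner of AMPA receptors, was at 22.2 ± 1.18 CPM in Ctrl and 45.1 ± 2.61 CPM in cKO embryos (SD, n = 3), and rose by 1.02 (edgeR adjusted p = 3.03e-05), and Neto1 fell by 1.03 (edgeR adjusted p = 0.0212).

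Of 38 genes tested at E12.5 for transmitter synthesis, transport and breakdown, 5 fell and 1 rose in mild hypomorphs and 3 fell and 1 rose in severe hypomorphs. Over all genes tested, 4.45% were called lower and 3.71% higher in mild and 5.99% lower and 5.48% higher in severe hypomorphs. At E10.5 none of 36 was called in cKO embryos. Gad1, which makes GABA, fell in both hypomorphs, at -0.40 and -0.34. Abat, which breaks GABA down, and Slc1a1, a glutamate transporter, fell in mild hypomorphs by 0.38 and 0.83. Shmt1, an enzyme of serine and glycine metabolism, rose by 0.35 and 0.34. Medians were -0.18 in mild and -0.14 in severe hypomorphs.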

How the data were processed

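The authors trimmed reads with Trim Galore 0.4.1, aligned them to GRCm38 with TopHat2 2.1.0 and counted them on genes with featureCounts 1.5.0. The header of the E12.5 table gives no strand option, although the library protocol used dUTP, and no such header was seen for E10.5. The deposited values are raw counts for each gene in each of 2 sequencing runs per library, and the runs were summed. The authors state that replicates came from different litters.

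Receptor genes and gene lists were chosen with earlier results of these data known. Genes named are those called in any comparison, the highest of each family per exon length, those next to the count limit, the 3 of largest change without overlap per comparison, and called genes of the auxiliary and transmitter lists. Chrm3, Chrna4, Chrnb1, Chrnb4, Gabra4, Gabrb1, Gabrg3, Glra2, Gria1, Grin1, Htr3b and the promoter motif were chosen after their values were seen. Some genes that enter the counts and medians are not reported here by name.

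Genes were filtered with filterByExpr, scaled with TMM and tested with the robust quasi-likelihood test of edgeR 4.0.16 under R 4.3.3, and the Benjamini-Hochberg adjustment ran over every gene that passed the filter. One fit held the 12 neocortex libraries and another the 6 libraries of E10.5. The procedure was also tested on simulated counts of 2 groups. That simulation left out genes with low counts and gave every gene the same spread, so it does not vouch for the calls of receptor genes. SE is the size of the log2 fold change over the root of the F statistic. CPM values use TMM factors. Exon overlaps were taken from the exons listed in the E12.5 table. Alternatives were DESeq2 1.42.0, RLE scaling, no filter, only the groups compared, a replicate block, an exon length trend removed, the Xist level as a covariate, and each library left out. Deviations of same-numbered libraries from their group means correlated over genes in every pair only for Chd8 neo/neo and Chd8 +/- (0.108, 0.195 and 0.199), where the blocked value is given. Some differently numbered libraries correlated as strongly, such as Chd8 neo/neo replicate 3 with Chd8 +/+ replicate 2 (0.225). The correlations therefore do not show that libraries were paired. Figures were drawn with matplotlib 3.10.9. Promoter sequences are those of RefSeq (GRCm38.p6).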

Additional observations from a re-analysis of the deposited data

Results flagged for a closer look

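Gria3 moved in opposite directions between the stages. Every cKO library at E10.5 lay above every Ctrl library, with a log2 fold change of 1.04, while every Chd8 neo/neo library and every Chd8 neo/- library at E12.5 lay below every Chd8 +/+ library, with log2 fold changes of -0.36 and -0.22. Chrna1 moved the other way, with a log2 fold change of -0.60 in cKO embryos and 0.48 in Chd8 neo/- embryos, again with no overlap between groups in either comparison. In Chd8 neo/neo, however, Chrna1 was at 0.543, 0.793 and 0.772 CPM and overlapped Chd8 +/+ at 0.607, 0.590 and 0.617 CPM. The Chrna1 call in cKO embryos was lost in 6 of 13 alternatives. The differences between stages were not tested, because the tables were normalised separately and stage, tissue and Chd8 allele changed together. The fall of Gria3 in Chd8 neo/- and the rise of Chrna1 in Chd8 neo/- did not pass the test by themselves (edgeR adjusted p = 0.0718 and 0.143).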

How the results depend on the processing

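The count of called receptor genes stayed at 0 under all 20 alternatives for Chd8 +/- against Chd8 +/+ and for Chd8 neo/- against Chd8 neo/neo. For Chd8 neo/neo against Chd8 +/+ (11 called) it was 18 with DESeq2, 4 with only the 2 groups fitted, 7 with the exon length trend removed, 7 with the replicate block and the length trend removed together, and 1 to 24 without single libraries. For Chd8 neo/- against Chd8 +/+ (5 called) it was 8 with DESeq2, 12 with only the 2 groups, 3 with the replicate block, 3 with the length trend removed, 3 with both, and 3 to 9 without single libraries. For Chd8 neo/neo against Chd8 +/- (13 called) it was 23 with DESeq2, 0 with only the 2 groups, 8 with the replicate block, 6 with the block and the length trend removed, 5 with the Xist level as a covariate, and 1 to 26 without single libraries. For cKO against Ctrl (5 called) it was 1 to 5 without single libraries. The cause of these shifts was not tested. With the replicate block the counts were 11 for Chd8 neo/neo against Chd8 +/+ and 5 for cKO against Ctrl. The genes called were not all the same, as Chrnb2 lost its call in the former and Gabrb2 in the latter. Of 34 called differences, 5 kept their call in every alternative (Gabra2 in both hypomorphs, Grik3 and Htr3a in Chd8 neo/-, and Gria3 in cKO embryos). Over 645 alternative values of these differences, 443 kept the call, 202 lost it and 0 changed sign. The median log2 fold change of the receptor genes ranged from -0.42 to -0.27 in Chd8 neo/neo and from -0.29 to -0.15 in Chd8 neo/- against Chd8 +/+. Each value rests on 3 libraries per group, and those of genes next to the count limit rest on the fewest reads.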
